A study of Mus musculus with 9 samples.

Results

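The constant genes of the mouse antibody chains were followed across 9 colon libraries. The set holds 10 genes of the 54491 in the deposited table: the heavy chain genes Igha, Ighm, Ighd, Ighe, Ighg1, Ighg2b, Ighg2c and Ighg3, and the light chain genes Igkc and Iglc1. Members were matched to the table by symbol, and all 10 were found. Total RNA of colon tissue from C57BL/6 mice at postnatal day 98 was sequenced, from 3 groups of 15 mice formed at an age of 6 weeks. The control group has replicates 1, 2 and 3, and the group on a high-fat diet (HFD) has replicates 1, 2 and 4. The remaining group, with replicates 1, 3 and 4, received the high-fat diet plus the gut bacterium Papillibacter cinnamivorans by gavage, that is, by a tube into the stomach. The labels name a gavage only for that group, so the bacterium and the gavage cannot be told apart. The labels do not say that the libraries came from separate mice, so p-values measure only the spread between these libraries, which may be technical.

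An antibody is built from paired heavy and light chains, and the constant gene joined to the heavy chain sets its isotype. Naive B cells make IgM and IgD from a single primary transcript by alternative splicing. After activation, in class switching, the same variable region is joined to an IgG, IgE or IgA constant gene further along the locus. In the gut most plasma cells, the antibody-secreting end stage of the B cell, make IgA, which is linked into dimers by the J chain (Jchain) and carried across the epithelium by the polymeric immunoglobulin receptor (Pigr). IgG, which diffuses into tissue and binds Fc receptors on macrophages, is a minor product there. The 8 heavy chain genes lie on chromosome 12 in the order Ighm, Ighd, Ighg3, Ighg1, Ighg2b, Ighg2c, Ighe and Igha, while Igkc lies on chromosome 6 and Iglc1 on chromosome 16. C57BL/6 mice carry Ighg2c where some other strains carry Ighg2a.

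The 4 IgG subclass genes differ visibly in the hinge exon, the second exon of each gene, which links the antigen-binding arm to the Fc part. The sequences below are from the GENCODE M21 transcripts, 5′ to 3′ on the coding strand, and the capitals mark cysteine codons in frame, the residues that can bond the heavy chains to each other.
Ighg1 hinge exon: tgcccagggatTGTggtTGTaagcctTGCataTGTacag
Ighg2b hinge exon: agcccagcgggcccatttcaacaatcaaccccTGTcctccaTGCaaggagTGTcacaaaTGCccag
Ighg2c hinge exon: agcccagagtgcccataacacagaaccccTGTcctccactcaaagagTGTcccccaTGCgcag
Ighg3 hinge exon: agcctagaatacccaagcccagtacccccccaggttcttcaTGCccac
The exons are 39, 66, 63 and 48 bases long in that order, with 4, 4, 3 and 1 cysteine codons. Exact matches between exons of different members were rare. Of all 50-base windows, 5.49% of those in Ighg2c were also found in Ighg2b, and 4.15% of those in Ighg2b occurred in another IgG gene. The share was 1.58% for Ighg3, 0.393% for Ighg1 and 0% for Igha, Ighm, Ighd, Ighe, Igkc and Iglc1. At 100 bases no member shared a window with another. How the authors' counting assigned shared reads is not given in the sources used here, so small values of 1 IgG gene beside large values of another are uncertain.

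Igha and Ighm end alike. Both secreted forms carry a short tail that the membrane forms lack and that binds the J chain. Its coding bases are shown with capitals where Igha and Ighm are identical, which they are at 40 of 59 positions (67.8%).
Igha secreted tail: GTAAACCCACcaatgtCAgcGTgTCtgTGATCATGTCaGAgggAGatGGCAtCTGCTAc
Ighm secreted tail: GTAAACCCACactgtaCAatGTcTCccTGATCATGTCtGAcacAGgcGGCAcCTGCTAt
The deposited values are 1 number per gene and do not separate secreted from membrane transcripts.

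Values are FPKM, fragments scaled by gene length and library size, as the authors deposited them. Whole fragments could be recovered from them with a divisor of 13976916 to 18753728 fragments per library, so Igkc rested on 10832 to 187279 fragments and Ighe on 0 to 20. The 3 HFD libraries stand apart from the other 6 on the first principal component of all tested genes, with scores of 59.6 to 62.7 against -39.6 to -12.6, and control replicate 1 stands apart on the second. Hox genes that mark position along the colon follow that split. Hoxb13 was 118 to 134 FPKM in the HFD libraries, 7.73 in control replicate 1 and 0.052 to 2.15 in the other 5, and Hoxb6 was 0.937 to 1.34, 6.08 and 23.6 to 64.2 FPKM in the same order. Mitochondrially encoded transcripts took 11.6% ± 1.92 of the summed FPKM in HFD, 21.7% ± 4.53 in control and 28.2% ± 6.62 with the bacterium (SD, n = 3 libraries each). The part of tissue position, of RNA composition and of control replicate 1 in the results below was not tested, except where a value without that library is given. In whole tissue, fewer cells of a type and less RNA per cell cannot be told apart.

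The constant genes were high in every HFD library. Together the 10 took 6.09% ± 0.868 of the summed FPKM in HFD, 0.676% ± 0.322 in control and 1.43% ± 0.774 in HFD plus bacterium (SD, n = 3). The HFD libraries did not overlap with control for any of the 10 genes. They did not overlap with HFD plus bacterium for 9 of the 10, the exception being Iglc1, while control and HFD plus bacterium overlapped for all 10. The share of all tested genes that were separated in the same way was not counted. Since the HFD libraries stood apart over all tested genes, these counts cannot be read as particular to the members.

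**Figure D1:**
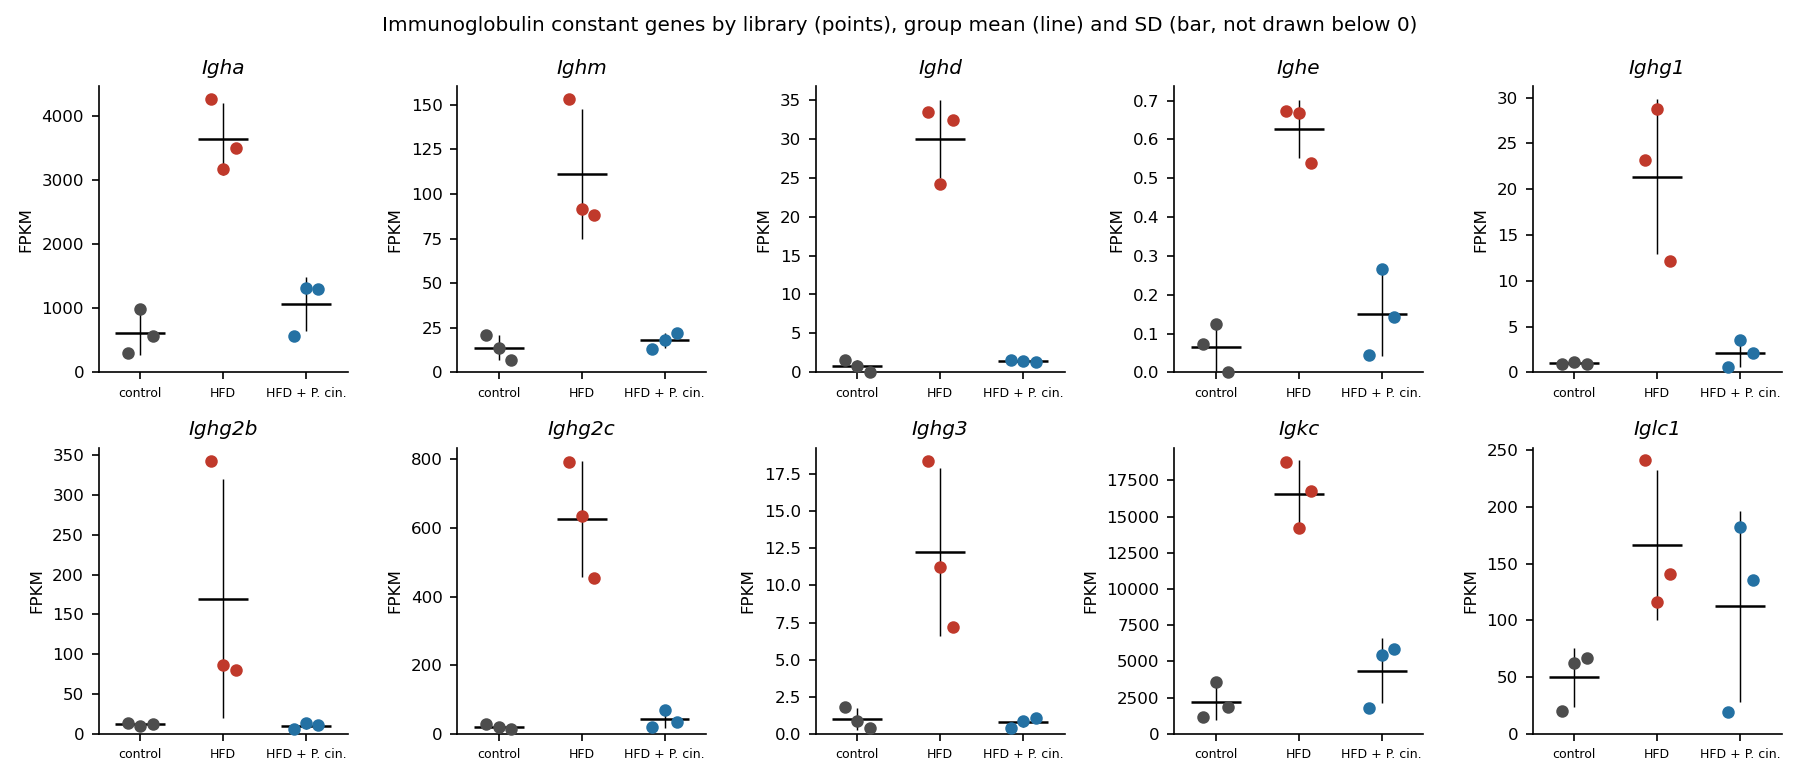
FPKM (linear axis from 0) of the 10 constant genes, 1 panel each: points are the 3 libraries of a group, the line is the group mean and the bar the SD. The 3 HFD libraries lie above the other 6 for every gene but Iglc1, and the control and bacterium libraries intermingle.

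Igha, the constant gene of IgA, had the highest level of the heavy chains in all 9 libraries. Igha (ENSMUSG00000095079) was 300, 992 and 566 FPKM in control replicates 1, 2 and 3. In HFD replicates 1, 2 and 4 it was 4266, 3164 and 3501 FPKM. With the bacterium, replicates 1, 3 and 4 had 574, 1317 and 1300 FPKM. The lowest HFD library was thus above the highest of any other group. The mean of 3644 ± 565 FPKM in HFD was 5.88 times the control mean of 619 ± 349 and 3.42 times the bacterium mean of 1064 ± 424 (SD, n = 3).

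Ighm and Ighd, the isotypes of naive B cells, differed in how far they moved. Ighm (ENSMUSG00000076617) was 20.8, 13.7 and 7.01 FPKM in control, 153, 91.7 and 88.2 in HFD, and 13.4, 18.3 and 22.0 with the bacterium, in replicate order. Its HFD mean was 8.02 times the control mean. Ighd (ENSMUSG00000104213) was 1.61, 0.799 and 0.104 FPKM in control, 33.4, 24.1 and 32.3 in HFD, and 1.62, 1.48 and 1.32 with the bacterium. This is a 35.8-fold higher mean in HFD than in control and a 20.3-fold higher one than with the bacterium, and the control value of replicate 3 rests on 3 fragments. Without control replicate 1 the fold over control was 66.4. The ratio of the pair moved with the level: Ighd stood at 28.3 ± 7.63 FPKM per 100 of Ighm in HFD, 5.02 ± 3.20 in control and 8.73 ± 3.10 with the bacterium. No HFD library (21.8 to 36.7) overlapped with the others (1.49 to 12.1) in this ratio.

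Among the IgG subclasses Ighg2c had the highest mean FPKM, which is per exonic gene model length, in each of the 3 groups. In control this order of the means turned on other bases: Ighg2b exceeded Ighg2c as a share of heavy chain fragments (2.38% against 2.04%) and per secreted transcript length (2.37% against 2.04%). That turn rests on control replicate 3, with 504 fragments of Ighg2b and 259 of Ighg2c. Replicates 1 and 2 had nearly equal numbers, at 643 and 396 against 647 and 385. Ighg2c (ENSMUSG00000076612) was 28.7, 19.2 and 12.9 FPKM in control and 790, 634 and 453 in HFD, and 21.0, 70.6 and 35.3 with the bacterium. The HFD mean of 626 ± 169 FPKM was 30.9 times the control mean of 20.3 ± 7.95 and 14.8 times the bacterium mean of 42.3 ± 25.5 (SD, n = 3), or 22.2 times without replicate 3 of the bacterium group. Ighg2b (ENSMUSG00000076613) was 14.1, 9.76 and 12.4 FPKM in control, 343, 87.2 and 79.9 in HFD, and 5.90, 13.2 and 10.9 with the bacterium. HFD replicate 1 was far above the other 2 HFD libraries, so the SD of the HFD mean (170 ± 150 FPKM) is nearly as large as the mean. Ighg1 (ENSMUSG00000076614) was 0.908, 1.15 and 0.892 FPKM in control, 23.1, 28.8 and 12.2 in HFD, and 0.607, 3.59 and 2.13 with the bacterium. Ighg3 (ENSMUSG00000076615) was 1.80, 0.840 and 0.394 FPKM in control, 18.4, 11.3 and 7.21 in HFD, and 0.427, 0.860 and 1.09 with the bacterium. The fold of the HFD mean over control was 21.8 for Ighg1, 14.0 for Ighg2b and 12.1 for Ighg3. For Ighg2b it was 6.90 without HFD replicate 1, and for Ighg3 it was 19.9 without control replicate 1.

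Ighe, the constant gene of IgE, which arms mast cells, was barely sequenced. Ighe (ENSMUSG00000087642) had 2, 3 and 0 recovered fragments in control (a count of 0 allows up to 3 fragments, or 0.125 FPKM in that library), 20, 19 and 15 in HFD, and 1, 7 and 4 with the bacterium, which are 0 to 0.125, 0.540 to 0.673 and 0.0451 to 0.265 FPKM. Only the 3 HFD libraries reached the filter of 0.5 FPKM, so Ighe entered the test only through the group where it was high and had to differ there.

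Of the light chain members, Igkc (kappa) was separated from both other groups in HFD and Iglc1 (lambda) from control only. Igkc (ENSMUSG00000076609) was 1197, 3606 and 1880 FPKM in control, 18771, 14193 and 16789 in HFD, and 1782, 5425 and 5857 with the bacterium. Its HFD mean was 7.44 times the control mean and 3.81 times the bacterium mean. Iglc1 (ENSMUSG00000105906) was 20.1, 62.5 and 66.5 FPKM in control, 241, 116 and 141 in HFD, and 19.1, 183 and 136 with the bacterium. With the bacterium Iglc1 ranged from the level of the lowest control library to above that of HFD replicates 2 and 4. The summed light chains stood at 3.36 ± 0.152 times the summed heavy chains in control, 3.66 ± 0.354 in HFD and 3.74 ± 0.744 with the bacterium, and these ranges overlapped.

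In order of HFD level, Igkc was followed by Igha, Ighg2c, Ighg2b, Iglc1, Ighm, Ighd, Ighg1, Ighg3 and Ighe. Neighbours from Ighg2b to Ighm overlapped in their HFD libraries, as did Ighd with Ighg1 and Ighg1 with Ighg3, while Ighm lay above Ighd. Igkc, Igha and Ighg2c at the top and Ighe at the bottom were separated from their neighbours in all 3 HFD libraries. Levels here are per length of the whole exonic gene model, which for Igha (2668 bases) is far longer than the secreted transcript (1100 bases) and for Ighg2c (1326 against 1111 bases) is not.

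Whether the constant genes differed between the groups was tested with limma on log2(FPKM + 1) over 17907 genes, with Benjamini-Hochberg adjustment. A gene was called where the adjusted p was below 0.05. Log2 differences are on that scale, on which the change of low genes is understated. In HFD against control, 9 of the 10 members were called higher, while 10.6% of all tested genes were called higher and 9.11% lower. Without Ighe it was 8 of 9. The median log2 difference of the 10 was 3.01, against 0.00 over all tested genes. Ighg2c had the largest difference, at 4.91 (SE 0.44, adjusted p = 0.00022), followed by Ighd at 4.15 (SE 0.28, adjusted p = 6.5e-05). Ighg1, Ighg2b and Igkc rose by 3.42, 3.38 and 3.03, with adjusted p of 0.00072, 0.0030 and 0.0064. Ighm rose by 2.99 (adjusted p = 0.0010), Igha by 2.71 (SE 0.47, adjusted p = 0.0052) and Ighg3 by 2.69 (adjusted p = 0.0012). For Ighe, whose entry through the filter fixed its direction, the difference was 0.61. Iglc1 was 1.83 higher (SE 0.80) and did not pass (adjusted p = 0.14), although it passed without replicate 1 of the bacterium group (adjusted p = 0.033).

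**Figure D2:**
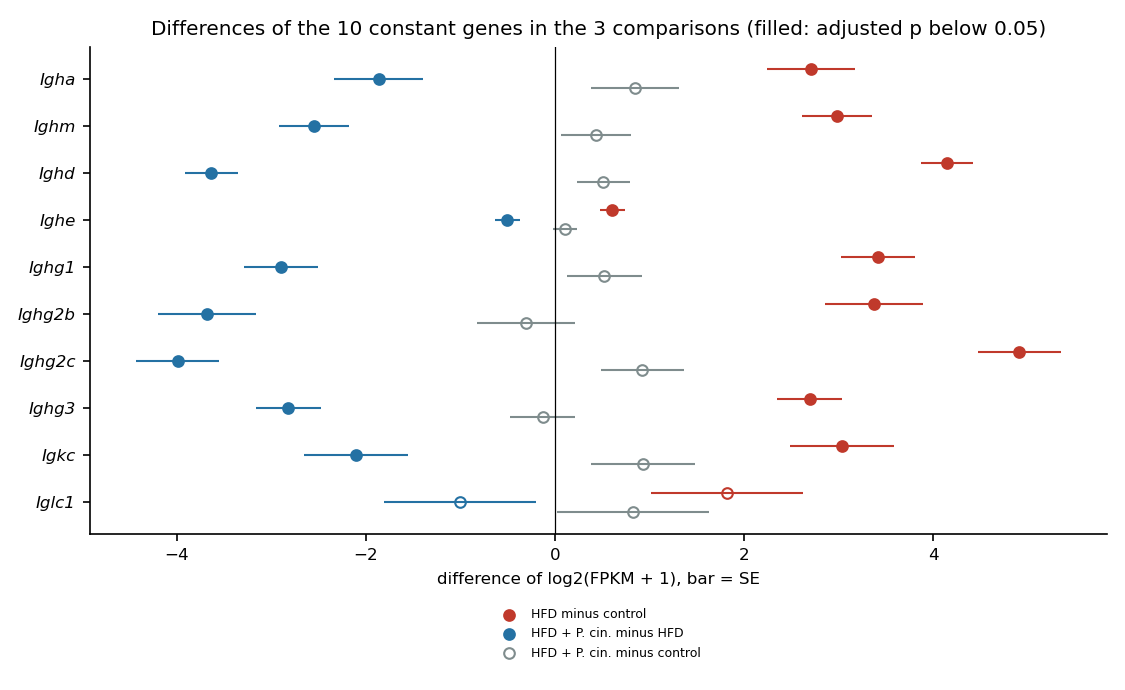
Difference of log2(FPKM + 1) of the 10 constant genes with its SE in 3 comparisons, filled where the adjusted p was below 0.05. Ighg2c has the largest difference of HFD from control (4.91), Iglc1 is open throughout, and no gene is filled for the bacterium group against control.

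With the bacterium, 9 of the 10 members were called lower than in HFD alone, where 7.6% of all tested genes were called lower and 4.54% higher. Without Ighe, which had to differ, it was 8 of 9. This comparison uses the same 3 HFD libraries as the one above, so the 2 are not separate evidence. Ighg2c fell by 3.99 (SE 0.44, adjusted p = 0.00071), Ighg2b by 3.68 (adjusted p = 0.0024) and Ighd by 3.63 (adjusted p = 0.00013). Ighg1, Ighg3 and Ighm fell by 2.89, 2.82 and 2.55, with adjusted p of 0.0020, 0.0012 and 0.0028. Igkc fell by 2.10 (SE 0.55, adjusted p = 0.040) and Igha by 1.86 (SE 0.47, adjusted p = 0.035). For Ighe, whose entry through the filter fixed its direction, the difference was -0.50. Iglc1 had a difference of -1.0 (SE 0.80, adjusted p = 0.47). The calls of Igha and Igkc were lost when any of several single libraries was left out. Igha had an adjusted p of 0.12, 0.092 and 0.094 without HFD replicate 1, 2 or 4, and of 0.11 and 0.061 without replicate 1 or 4 of the bacterium group. Igkc had 0.13, 0.10 and 0.11, then 0.10 and 0.055, without the same libraries, and 0.054 without control replicate 3. Ighm, Ighd and the 4 IgG genes were called whichever library was left out.

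Between the bacterium group and control no member was called by limma, where 0.262% of all tested genes were called higher and 0.843% lower. At an unadjusted p below 0.05 the count was also 0, and it was 0 with limma-voom on the recovered fragments. The log2 differences ran from -0.30 for Ighg2b to 0.93 for Igkc and for Ighg2c, with adjusted p from 0.28 to 0.88. Igha was 0.85 higher with the bacterium, with an SE of 0.47. These values do not show that the levels of the 2 groups are equal.

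The make-up of the heavy chains was then compared as each isotype's share of the 8 summed heavy chain FPKM. Igha took 75.8%, 78.3% and 83.9% in HFD replicates 1, 2 and 4, against 93.0%, 92.4% and 94.7% with the bacterium. In control it took 95.6% and 94.4% in replicates 2 and 3 but 81.5% in replicate 1, within the HFD range. Ighg2c took 14.0%, 15.7% and 10.8% in HFD, 7.79%, 1.85% and 2.15% in control, and 3.40%, 4.95% and 2.57% with the bacterium. The HFD libraries were above the other 6 in that share. The 4 IgG genes together held 17.6% ± 3.96 in HFD, 6.59% ± 5.05 in control and 4.77% ± 1.32 with the bacterium (SD, n = 3), and control replicate 1 with 12.4% lay just under the lowest HFD library at 13.2%.

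**Figure D3:**
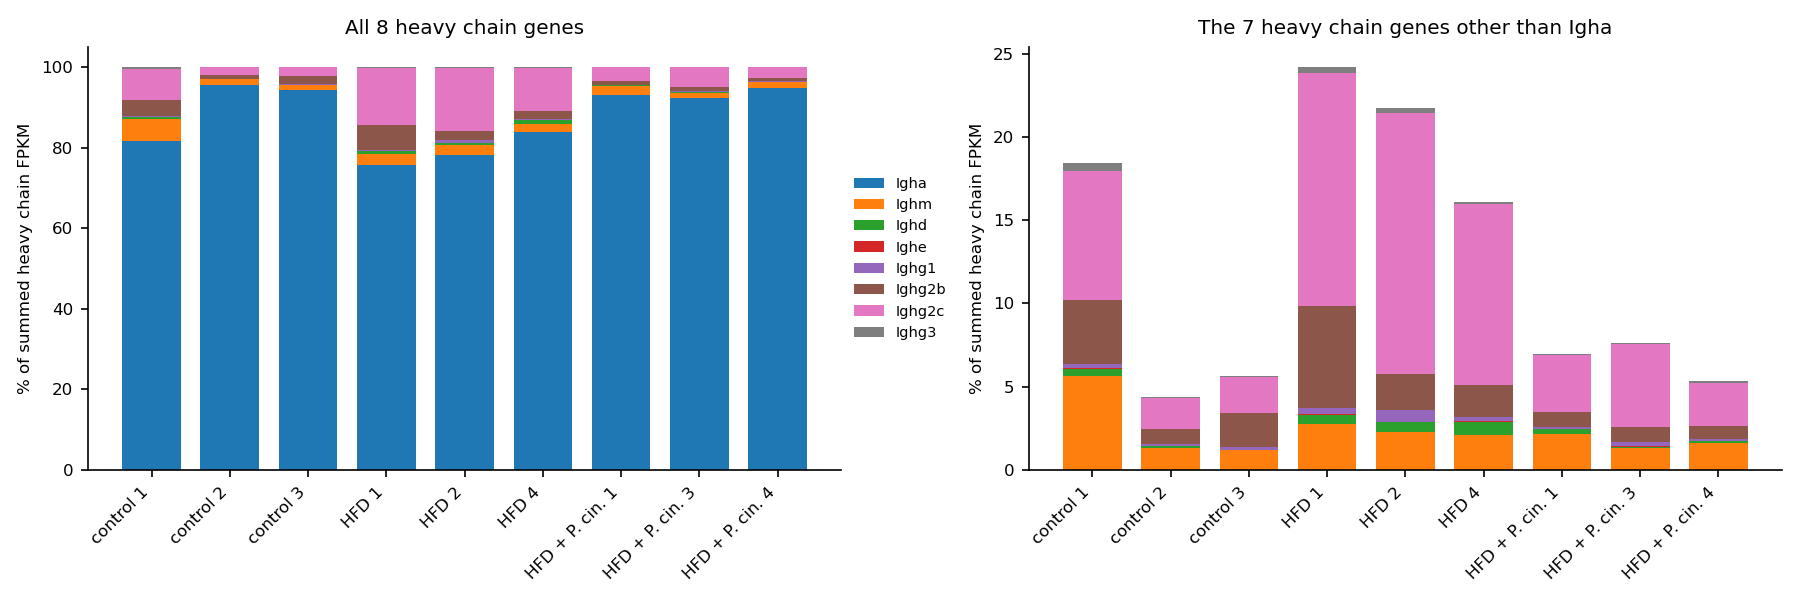
Share of each isotype in the 8 summed heavy chain FPKM, in percent, for each of the 9 libraries, with all 8 genes at left and the 7 other than Igha at right. Igha fills 75.8% to 83.9% of the HFD bars and 92.4% to 95.6% of the others, apart from control replicate 1 at 81.5%.

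Shares were tested over the 3 groups with an exact two-sided permutation test, whose smallest possible p is 0.00357, and adjusted over 9 shares. A test of 3 libraries against 3 cannot go below 0.10 and was not used. Ighg2c, Ighd and Ighg1 each had an exact p of 0.036, which became 0.11 after adjustment. The share of Ighd was 0.655% ± 0.104 in HFD, 0.177% ± 0.227 in control and 0.154% ± 0.094 with the bacterium, and that of Ighg1 was 0.471% ± 0.216, 0.169% ± 0.070 and 0.168% ± 0.078. For Igha the exact p was 0.068 (adjusted 0.15). None of the 9 shares passed after adjustment with all libraries in. Without control replicate 1, the shares of Igha, Ighd and Ighg2c each had an adjusted exact permutation p of 0.032, so 1 library decides those calls. Ighm took 2.71% ± 2.54, 2.37% ± 0.316 and 1.68% ± 0.449 in control, HFD and HFD plus bacterium (exact p = 0.87). Ighg2b, Ighg3 and Ighe had exact p of 0.23, 0.36 and 0.89. Iglc1 as a part of Igkc plus Iglc1 was 0.971% ± 0.258 in HFD, 2.26% ± 1.0 in control and 2.19% ± 1.10 with the bacterium (exact p = 0.20).

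The shares depend on the length used. As shares of fragments, Igha took 85.9% ± 3.55 in HFD, 93.1% ± 5.71 in control and 95.7% ± 0.682 with the bacterium, and the 4 IgG genes 11.8% ± 3.37, 4.80% ± 3.64 and 3.01% ± 0.742. Divided by the length of the secreted transcript, Igha took 86.3% ± 3.46, 93.5% ± 5.31 and 95.9% ± 0.687. Ighg2c had 7.30%, 2.04% and 1.86% of the fragments, below its share per exonic length in each group. Within the summed FPKM of the 4 IgG genes, Ighg2c made up 77.5% ± 8.90 in HFD and 75.5% ± 4.25 with the bacterium against 57.8% ± 8.13 in control. The HFD and bacterium groups, at 67.3% to 83.3% and 71.5% to 80.0%, lay above control at 48.5% to 63.0% in that share, which was not tested. Of the IgG fragments Ighg2c made up 63.8% ± 11.5 in HFD, 60.8% ± 5.53 with the bacterium and 40.9% ± 7.85 in control, where Ighg2b held 51.3% ± 9.28.

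Partners of IgA were read beside Igha. Jchain, which links IgA dimers and IgM pentamers, was 143 ± 44.7 FPKM in control, 890 ± 118 in HFD and 309 ± 107 with the bacterium (limma adjusted p = 0.00086 for HFD against control and 0.013 for bacterium against HFD). Per 100 FPKM of Igha there were 25.6 ± 6.68, 24.5 ± 0.686 and 29.9 ± 4.17 of Jchain, so the pair kept close to a single ratio within HFD. The HFD libraries (24.0 to 25.3) overlapped with control (18.6 to 31.8) and lay just below the bacterium group (25.4 to 33.7) in it. Pigr, the epithelial carrier of IgA, was 410 ± 56.9, 909 ± 124 and 458 ± 147 FPKM (adjusted p = 0.014 and 0.031). Its fold was smaller than that of Igha: per 100 FPKM of Igha, Pigr stood at 79.2 ± 35.0 in control, 25.1 ± 3.33 in HFD and 48.1 ± 21.7 with the bacterium. No HFD library (22.2 to 28.8) overlapped with control (44.9 to 115) in this ratio, while the bacterium group spanned 26.7 to 70.1.

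**Figure D4:**
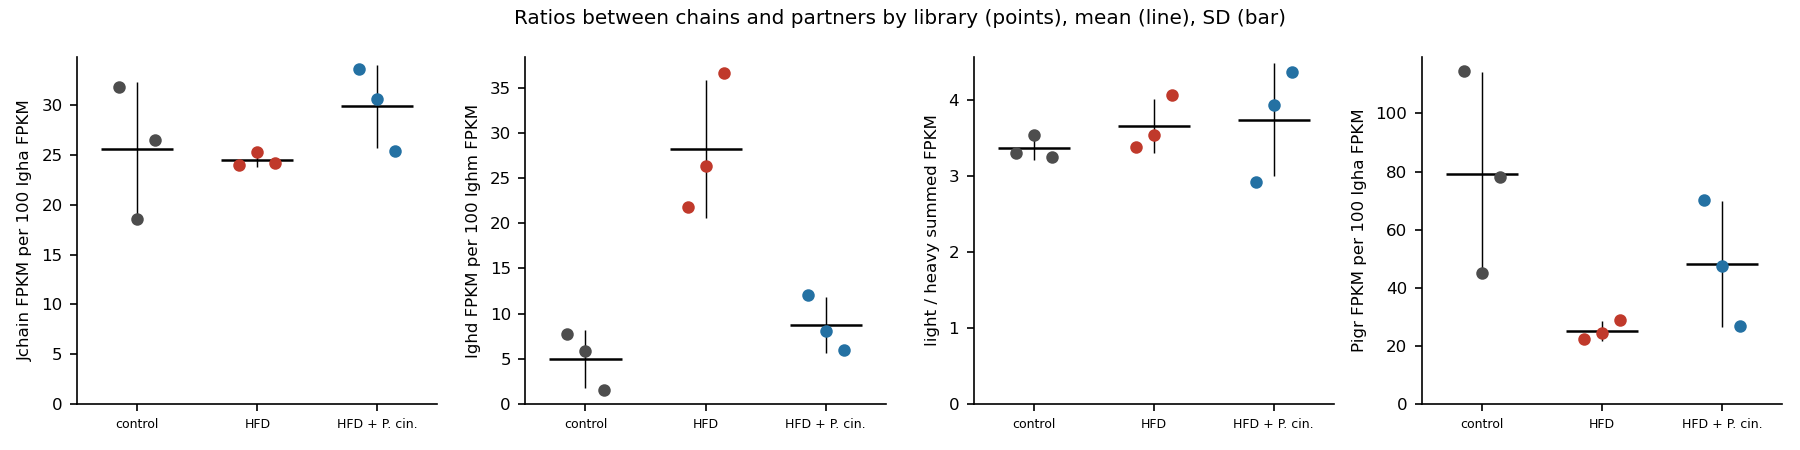
Ratios of FPKM by library with group mean and SD: Jchain per 100 Igha, Ighd per 100 Ighm, summed light over summed heavy chains, and Pigr per 100 Igha. Jchain per Igha and light over heavy overlap between HFD and control, while Ighd per Ighm is higher (21.8 to 36.7) and Pigr per Igha lower (22.2 to 28.8) in HFD than in every control library.

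Other genes of the antibody pathway were read from lists of known genes. Of 7 further constant and surrogate light chain genes, 3 were tested and all 3 were called higher in HFD than in control (10.6% of all tested genes were). Iglc2 and Iglc3, lambda genes that share 7.65% and 10.7% of their 50-base windows with each other, went from 28.9 ± 13.5 to 172 ± 85.2 FPKM (limma adjusted p = 0.011) and from 7.22 ± 3.34 to 28.7 ± 11.8 FPKM (adjusted p = 0.019). Vpreb3, a partner of the immature B cell receptor, went from 0.777 ± 0.938 to 7.49 ± 1.90 FPKM (adjusted p = 0.0040). With the bacterium Iglc3 and Vpreb3 were called lower than in HFD (adjusted p = 0.024 and 0.014), and Iglc2 at 50.9 ± 33.2 FPKM was not (0.055).

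B cell genes moved with the isotypes. Of 18 genes of B cell identity and the antigen receptor, 16 were called higher in HFD than in control (10.6% of all tested genes were). With the bacterium 16 were called lower than in HFD (7.6% of all tested genes were). The list's summed level was 149 to 187 FPKM in HFD, 21.2 to 38.8 in control and 20.6 to 30.7 with the bacterium. Cd79a and Cd79b, the signalling chains of the B cell receptor, were 32.2 ± 10.1 and 31.2 ± 2.99 FPKM in HFD against 2.93 ± 2.32 and 2.35 ± 2.07 in control (adjusted p = 0.0019 and 0.00082). Blnk, an adaptor below that receptor, was 13.6 ± 2.04 against 13.4 ± 0.894 FPKM (adjusted p = 0.96). Of 18 plasma cell and secretion genes, 9 were called higher and 1 lower in HFD, with a median log2 difference of 0.66. Xbp1, the secretory transcription factor, which epithelium also uses, was 84.9 ± 4.64 against 59.5 ± 3.71 FPKM (adjusted p = 0.087), and Cd38 was 86.4 ± 4.56 against 76.9 ± 43.1 (adjusted p = 0.58). With the bacterium 8 of these 18 were called lower and 1 higher than in HFD.

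The genes that carry out class switching were mostly not called. Of 19 tested genes for the DNA steps of switching, 3 were called higher in HFD than in control (10.6% of all tested genes were). Xrcc5, an end-joining protein, rose from 8.04 ± 0.403 to 12.1 ± 0.921 FPKM (limma adjusted p = 0.021). Of 8 germinal centre genes 6 were called higher in HFD, among them Mybl1 (0.729 ± 0.062 to 1.89 ± 0.446 FPKM, adjusted p = 0.012). Bcl6, the germinal centre transcription factor, was 2.50 ± 0.308 against 3.02 ± 0.719 (adjusted p = 0.42). Rgs13 was 2.77 ± 0.682 against 2.57 ± 0.334 FPKM (adjusted p = 0.85), and was the germinal centre gene called higher with the bacterium than in HFD, at 5.49 ± 1.52 FPKM (adjusted p = 0.028).

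Of 10 tested signals for switching and plasma cell survival, 4 were called higher in HFD than in control (10.6% of all tested genes were). Tnfsf13, which encodes the plasma cell survival factor APRIL, rose from 1.24 ± 0.398 to 2.83 ± 0.314 FPKM (limma adjusted p = 0.038). Tgfb1, the cytokine that directs switching to IgA, was 3.98 ± 0.630 in control and 6.38 ± 1.59 in HFD (adjusted p = 0.061) and fell to 2.59 ± 0.350 FPKM with the bacterium (adjusted p = 0.0069 against HFD). Aldh1a2, which makes retinoic acid, was 7.88 ± 7.47, 2.04 ± 1.19 and 6.50 ± 1.25 FPKM and did not pass. Of 11 tested transport and Fc receptor genes, 8 were called higher in HFD and 7 lower with the bacterium, where 7.6% of all tested genes were called lower. B2m, the light chain of the neonatal Fc receptor and of MHC class I, was 2158 ± 428 in control and 3695 ± 351 FPKM in HFD (adjusted p = 0.055), and Fcgrt, the receptor's heavy chain, was 40.0 ± 11.5 against 28.5 ± 1.63 (adjusted p = 0.20).

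Many markers of other cells moved with the constant genes and some did not, and their part in the differences was not tested. Of 13 tested lymphoid follicle genes, 12 were called higher and 1 lower in HFD, with a summed level of 247 to 272 FPKM against 93.7 to 122 in control and 83.8 to 138 with the bacterium. Glycam1, the untested gene of that list, was at 0 in all 6 libraries outside HFD and at only 0.366 to 0.428 FPKM in HFD, below the filter of 0.5 FPKM. Cxcl13, the chemokine that draws B cells into follicles, rose from 10.7 ± 2.58 to 35.9 ± 0.371 FPKM (limma adjusted p = 0.0010), Ccl21a from 39.5 ± 15.3 to 134 ± 13.8 (0.014), while Ltbr, the lymphotoxin receptor, fell from 50.9 ± 3.16 to 35.2 ± 2.03 (0.017). Of 7 T cell receptor constant genes 3 were called higher in HFD, namely Trac (7.15 ± 2.14 to 18.6 ± 2.29 FPKM), Trbc1 and Trbc2. The list's summed level was 67.4 to 70.1 FPKM in HFD against 28.1 to 50.3 in control. With the bacterium 2 of these 7 were called lower than in HFD and 1 higher, with a median log2 difference of 0.17. The higher one was Tcrg-C2, at a mean of 12.7 FPKM against 5.42 in HFD (limma adjusted p = 0.0079). Of 8 macrophage genes 7 were called higher in HFD and 8 lower with the bacterium, with summed levels of 565 to 611 FPKM in HFD, 198 to 258 in control and 151 to 243 with the bacterium. Lyz2 rose from 107 ± 14.0 to 341 ± 8.21 and C1qb from 34.7 ± 6.90 to 102 ± 4.40 FPKM, and C1qa was 45.4 ± 6.88 against 60.6 ± 14.2 (adjusted p = 0.23).

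The tissue label was checked against epithelial and muscle transcripts. Krt8 was 2349 ± 855, 1776 ± 153 and 1942 ± 183 FPKM and Krt19 1249 ± 551, 1021 ± 198 and 807 ± 85.3 in control, HFD and HFD plus bacterium. Of 11 epithelial genes 5 were called lower in HFD than in control (9.11% of all tested genes were). The summed level was 4092 to 4811 FPKM in HFD, 5133 to 27188 in control and 13159 to 15243 with the bacterium. Most of that range is Car1, a carbonic anhydrase of surface cells, at 56.0 to 118 FPKM in HFD, 603 in control replicate 1 and 7726 to 19172 in the other 5 libraries. Acta2, Des and Actg2, of smooth muscle, were 901 ± 625, 526 ± 565 and 1015 ± 954 FPKM in control and 533 ± 34.6, 160 ± 19.7 and 350 ± 38.6 in HFD (adjusted p from 0.20 to 0.39). Of 8 Hox genes 4 were called higher in HFD and 3 lower, against 10.6% and 9.11% of all tested genes. Hoxb13 and Hoxd13 were 127 ± 8.03 and 84.3 ± 10.9 FPKM in HFD against 2.63 ± 4.42 and 0.159 ± 0.252 in control, and Hoxb6 was 1.14 ± 0.200 against 38.7 ± 29.7. Control replicate 1, the control library with the most Hoxb13 and least Car1, was also the control library with the highest Ighm, Ighd, Ighg2b, Ighg2c and Ighg3 and the lowest Igha and Igkc.

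The genes whose levels over the 9 libraries were most like those of 3 members were listed by Pearson r of log2(FPKM + 1) among 12451 genes with a mean of at least 1 FPKM. All of these libraries share the HFD split, so the values describe the ranking only. For Igha the 4 leading genes were Aga (r = 0.990), Gimap9 (0.982), Jchain (0.982) and Gnpda1 (0.979), and 40 genes had r above 0.95. For Ighm they were Arhgap4 (0.991), Inpp5d (0.989), Fmnl1 (0.988) and Dock10 (0.987), with 138 above 0.95. For Ighd they were H2-Ob (0.995), Npy1r (0.993), Wdfy4 (0.993) and Tnfrsf13b (0.993), with 206 above 0.95. Aga, a lysosomal enzyme, went from 6.27 ± 1.02 FPKM in control to 11.0 ± 0.259 in HFD and 7.25 ± 0.948 with the bacterium. H2-Ob, a chain of the B cell antigen-loading regulator, went from 0.628 ± 0.440 to 8.71 ± 1.06 and 1.06 ± 0.189 FPKM.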

How the data were processed

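The authors deposited 1 table of FPKM values, per the file headers, for 54491 genes and 9 colon libraries. The submitters' processing notes name HISAT2 2.0.5 and the build GRCm39; which tool counted fragments on which annotation is not given in the sources. Symbols (52093 identifiers matched), exonic lengths and sequences came from GENCODE M21; its build differs, so no coordinates are printed. With those lengths 98.5% to 98.9% of low values, per library, were whole fragments within 0.02. The sum of recovered fragments was 0.913 to 1.11 times the authors' divisor, lowest in HFD. Each ± is the SD between 3 libraries and each SE comes from the fit over libraries.

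Differences were tested in R 4.3.3 with limma 3.58.1 (limma-trend, all 9 libraries in 1 fit) on log2(FPKM + 1), after a filter of 0.5 FPKM in at least 3 libraries. The fit was tested on simulated data. All 10 members passed the filter, 1 of them (Ighe) only through HFD. Members, lists and tests were chosen with earlier results of these data known. Named genes are all members, the 3 genes of highest mean FPKM in each of 13 lists, Jchain, Pigr, and the 4 genes most like Igha, Ighm and Ighd; genes that this rule also named but that are absent from the text are not reported here. Glycam1, Tcrg-C2, Car1's range and the windows shared by genes were added after values were seen. Alternatives covered pseudocount, filter, scaling, trend, libraries, replicate block, limma-voom on recovered fragments and the length behind a share; the last 2 were added after seeing the data.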

Additional observations from a re-analysis of the deposited data

How the results depend on the processing

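All 9 calls of HFD against control kept their direction in every setting run. Igkc lost its call without the filter (adjusted p 0.14) and Ighe with the replicate block (0.069), while Iglc1 gained one in a fit of the 6 libraries compared (0.049). Of bacterium against HFD, Igha and Igkc lost theirs without the filter (0.11 and 0.37) and with the block (0.096 and 0.11), and Ighe lost its call with a pseudocount of 0.1 (0.11), the block (0.15) and limma-voom (0.063). The number of genes called in HFD against control was 3535 (1985 with the replicate block, 1612 to 4527 leaving out 1 library), with 8 to 10 members when 1 library was left out. For bacterium against HFD it was 2174 (3316 with only the 6 libraries compared, 1288 with the block, 991 to 3603 leaving out 1 library), with 6 to 9 members. For bacterium against control it was 198 (15 without a filter, 302 with a filter of 1 FPKM, 22 with TPM scaling, 46 with quantile normalization, 316 when scaled without mitochondrial and immunoglobulin genes, 10 with the 6 libraries compared, 0 with the block, 0 to 1187 leaving out 1 library, the highest without control replicate 1), and no member was called in any. The cause of these shifts was not tested. Same-numbered libraries of different groups had correlations of deviations from -0.156 to 0.187, and differently numbered ones from -0.168 to 0.155. With 3 libraries a group, these values cannot settle whether the replicate numbers pair the libraries. TPM scaling moved the median of all genes by 0.20 and turned the split of HFD against control from 1903 higher and 1632 lower to 3375 and 898, and that of bacterium against HFD from 813 and 1361 to 625 and 2020 (median -0.17); scaling without mitochondrial and immunoglobulin genes gave 3272 and 963 (median 0.17). Members' differences from control in HFD were larger than these shifts. In bacterium against control the log2 difference of Ighg2b turned to 0.0022 without replicate 1 of the bacterium group (range -0.52 to 0.0022 leaving out 1 library), and that of Ighg3 to 0.14 without control replicate 1 and 0.030 without that bacterium library (range -0.36 to 0.14), none called. For the shares, the direction of Ighm in HFD against control turned as a log2 ratio (adjusted exact permutation p 0.88) and without control replicate 1 (0.088); that of Ighg3 turned without control replicate 2 or 3 (0.31 and 0.32), of Ighe without control replicate 3 (0.63) and of Ighg2b without HFD replicate 1 (0.36). Leaving out 1 library gave adjusted p of 0.032 to 0.25 for the share of Igha, 0.032 to 0.24 for Ighd and Ighg2c, 0.088 to 0.99 for Ighm, 0.35 to 0.99 for Ighe, 0.19 to 0.58 for Ighg2b and 0.091 to 0.68 for Ighg3. Ighe was not tested with a filter of 1 FPKM or without any HFD library.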
